A study of Mus musculus with 10 samples.

Results

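The vessels of bone were followed through 40 genes of endothelial cells, the cells that line blood vessels. The genes were taken by symbol from a list of pan-endothelial, sinusoidal and arterial genes, and all 40 were found among the 27179 genes of the table. A filter on low values, 10 or more normalized counts in 5 or more libraries, kept 39 of them, within 14362 genes tested in all. Aplnr, the apelin receptor, did not pass.

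RNA was sequenced after ribosomal RNA depletion from pulverized femurs of 10 mice, 1 library per mouse, with age given as 3 or 4 weeks for the series and not per mouse. By label, 3 female and 2 male mice were Fgfr1+/N330I, with 1 mutant copy of Fgfr1, a receptor gene for fibroblast growth factors, and are called mutant here. Set against them were 3 female and 2 male wild-type (WT) littermates. Values are DESeq2-normalized counts, that is, counts that the authors divided by a size factor for each library, rounded to whole numbers. The replicates are separate mice by label, with their litters not given.

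Endothelial cells form a sheet held together by junction proteins such as VE-cadherin, and their growth is driven by vascular endothelial growth factor (VEGF) acting on receptors on their surface. ETS and SOX family transcription factors maintain the endothelial programme. In growing bone, capillaries rich in CD31 (the product of Pecam1) and endomucin run beside the growth plate close to bone-forming cells, while wide sinusoids carry blood through the marrow.

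Promoters of 4 of these genes are shown because they belong to the members with the smallest unadjusted p for genotype in their role group, 2 with a lower and 2 with a higher estimate in mutants. Each run is the 250 bases before the annotated start, from RefSeq on GRCm38.p6, 5′ to 3′ on the gene's own strand, with matches to AGGAAG (ETS factors) or ACAATNG (SOX factors), on either strand, in capitals. The reverse complements are CTTCCT and CNATTGT.
Egfl7 (chr2:26580833-26581082, plus strand): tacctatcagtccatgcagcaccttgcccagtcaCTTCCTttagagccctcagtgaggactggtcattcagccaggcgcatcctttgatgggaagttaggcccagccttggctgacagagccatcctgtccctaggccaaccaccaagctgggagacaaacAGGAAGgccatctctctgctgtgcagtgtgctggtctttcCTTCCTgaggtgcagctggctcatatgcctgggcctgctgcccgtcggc
Kdr (chr5:75978456-75978705, minus strand): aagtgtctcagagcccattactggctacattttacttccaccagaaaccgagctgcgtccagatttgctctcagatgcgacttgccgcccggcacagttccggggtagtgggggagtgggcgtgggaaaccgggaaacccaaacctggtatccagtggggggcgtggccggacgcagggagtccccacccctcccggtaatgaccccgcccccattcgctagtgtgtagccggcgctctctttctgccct
Calcrl (chr2:84425267-84425516, minus strand): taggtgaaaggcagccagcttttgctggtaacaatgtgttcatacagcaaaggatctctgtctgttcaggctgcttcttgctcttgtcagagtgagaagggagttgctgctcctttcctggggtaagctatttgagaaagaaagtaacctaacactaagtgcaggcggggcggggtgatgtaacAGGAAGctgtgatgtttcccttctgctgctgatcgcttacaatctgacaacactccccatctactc
Clec14a (chr12:58269259-58269508, minus strand): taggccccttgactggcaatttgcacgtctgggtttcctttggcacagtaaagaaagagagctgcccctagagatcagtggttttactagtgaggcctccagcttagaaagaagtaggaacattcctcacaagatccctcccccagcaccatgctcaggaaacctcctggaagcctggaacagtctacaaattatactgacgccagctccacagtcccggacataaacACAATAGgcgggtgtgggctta

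In this window Egfl7 held 3 matches to the ETS motif, whose first bases lay 216, 89 and 49 bases before the start, and Calcrl held 1, at 66 bases. Clec14a held 1 match to the SOX motif, 22 bases before the start, and Kdr held neither. She and Erg, picked by the same rule among genes with a promoter entry but not shown, held neither as well. Promoter entries were matched for 17 of the 40 genes. Of these, 10 (58.8%) held AGGAAG or its complement, against 29.5% of all 32851 promoter entries, and 2 (11.8%), Clec14a and Robo4, held the SOX motif, against 6.91% of all. The TATA box letters, TATAAA on either strand, stood in 3 of the 17 (17.6%), Myct1, Flt1 and Erg, against 12.4% of all entries. Each of the 17 genes was counted by 1 entry, that with the start nearest the gene end. The shares of all count every entry, so the shares compared differ in unit. A match is a run of letters, and no binding was measured. The RefSeq start sites of the 4 genes lay 0 or 27 bases from the gene ends given in the deposited table, which uses mm10, the same assembly.

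A few libraries stood apart. One sequenced read was worth an estimated 0.845 to 2.193 normalized counts, the most in female WT 3, in which the ribosomal RNA precursor Rn45s took 28.8% of counts, against 0.149% to 0.428% elsewhere. Totals ran from 24904802 to 39606608 normalized counts, with 12.9 to 30.6 M estimated reads outside Rn45s. Xist, transcribed from the inactive X chromosome, and the Y-linked Ddx3y reached 7972 and 4 normalized counts in the library labelled male mutant 2. In the rest of the male-labelled libraries Xist was at 14 to 48 and Ddx3y at 1558 to 1936, and in the female-labelled ones Xist was at 14007 to 19641 and Ddx3y at 0 to 4. Ddx3y in the library labelled male mutant 2 was thus in the range of the female-labelled ones, and Xist lay between the ranges. Of the male-labelled mutants, only male mutant 1 had Ddx3y at the level of the male WT mice. The library is named and counted by its label throughout, also where male mutants or male groups are named. Values within males and between the sexes therefore include a library without the male level of Ddx3y. Library names also change with labelled sex, so a difference between the sexes and one between the 2 sets of libraries cannot be told apart. Fgfr1 itself had 8856, 12560, 12990, 9132 and 12086 normalized counts in mutants, against 11326, 8610, 8848, 3861 and 7767 in WT mice. Its groups overlapped, and its log2 difference was 0.52 ± 0.23 (SE, limma adjusted p = 0.783).

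General vessel genes such as Cdh5 and Pecam1 were plentiful, while Stab2 and Lyve1 were low. Levels in whole femur do not show which cells made the RNA, and the presence of sinusoids was not tested. Per kilobase of exon, the median over 10 libraries was 1952 normalized counts for Apln (apelin, a peptide of growing vessels), 1562 for Cdh5 (VE-cadherin), 1240 for Cd93, 1092 for Pecam1 and 940.1 for S1pr1. Emcn stood at 507.2, Kdr at 173.7 and the arterial factor Sox17 at 57.5 on the same per-kilobase scale. At the low end were Lyve1 at 7.10, Stab2 at 1.54 and Aplnr at 0.561 per kilobase. Stab2, a hyaluronan scavenger receptor of sinusoids, had 5 to 18 normalized counts in the mutants, against 7 to 21 in the WT mice. The sinusoidal receptor Gpr182, outside the member list, had 0 in 8 libraries, with 1 and 3 in the male WT mice. A value equal to 3 reads was 2.54 to 6.58 normalized counts, depending on the library, so these genes lay at or near the detection floor. Of 4 lymphatic markers, Prox1 was at 0 to 9, Ccl21a at 1 to 19 and Reln at 1 to 55 normalized counts. The other, Pdpn, which osteocytes make as well, was at 3149 to 8747. Several blood cell lists were low too. Summed over each list, erythroid markers had 45 to 181 normalized counts, neutrophil markers 18 to 119 and B cell markers 10 to 28. Leukocyte markers had 25195 to 50104. How much marrow the RNA held was not tested, which limits the reading of the sinusoidal genes.

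Junction and surface genes made up the largest role group, with 16 genes. In mutants, 15 of the 16 had an estimate below 0, with a median log2 difference from WT mice of -1.19, and of -0.47 when female mutant 1 was left out. None passed an adjusted p under 0.05. Over the whole tissue, fewer endothelial cells and less RNA per cell cannot be told apart. Pecam1, an adhesion molecule of all endothelium, had 210, 3606 and 2059 normalized counts in female mutants 1 to 3 and 2546 and 5703 in labelled male mutants 1 and 2, against 6665, 3670 and 5514 in female WT mice and 3423 and 3612 in male WT mice. Female mutant 1 was far below every other library, and female mutant 2 and the library labelled male mutant 2 lay within the WT range. Its mean was 2825 ± 2025 in the 5 mutants and 4577 ± 1443 in the 5 WT mice (± SD), for a log2 difference of -1.24 ± 0.75 (SE, limma adjusted p = 0.795).

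Cdh5, the cadherin of endothelial junctions, had 382, 6635 and 3529 in female mutants and 3612 and 9400 in labelled male mutants, against 11186, 6570 and 9513 in female WT mice and 3854 and 5878 in male WT mice. The order of libraries resembled that of Pecam1, with female mutant 1 lowest and female WT 1 highest. Emcn, encoding endomucin, a sialomucin of capillaries and veins, had 47, 593 and 313 in female mutants and 497 and 929 in labelled male mutants, against 1217, 720 and 1048 in female WT mice and 889 and 762 in male WT mice. All mutants but the library labelled male mutant 2 were below every WT mouse. Its log2 difference was -1.45 ± 0.65 (SE, limma adjusted p = 0.786), and -0.76 ± 0.30 without female mutant 1 (limma adjusted p = 0.774).

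The same arrangement, 4 mutants below all WT mice, was found for Ecscr, a surface receptor of endothelial cells. It had 89, 560 and 349 in female mutants and 505 and 902 in labelled male mutants, against 949, 616 and 818 in female WT mice and 1243 and 645 in male WT mice. The log2 difference was -1.12 ± 0.48 (SE, limma adjusted p = 0.779). Cldn5, the main claudin of endothelial tight junctions, had 63, 695 and 555 in female mutants and 481 and 1212 in labelled male mutants, against 802, 936 and 702 in female WT mice and 1096 and 888 in male WT mice. Here too the library labelled male mutant 2 alone overlapped the WT mice, as the highest of all 10.

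Less of a gap was seen for Cd34, Cd93 and Plvap. Cd34, a sialomucin of endothelial and progenitor cells, had 1178, 2269 and 2174 in female mutants and 1985 and 3268 in labelled male mutants, against 3259, 2249 and 2779 in female WT mice and 3113 and 2118 in male WT mice. Cd93, a lectin-like receptor shared with myeloid cells, had 6261, 8593 and 6359 in female mutants and 6249 and 9875 in labelled male mutants, against 12640, 10058 and 11723 in female WT mice and 7122 and 7867 in male WT mice. In neither gene did female mutant 1 stand as far below the rest as for Pecam1, at 51.9% and 72.9% of the median of the other 9 libraries. Their log2 differences were -0.37 ± 0.24 for Cd34 and -0.40 ± 0.19 for Cd93. Plvap, which forms the diaphragms of fenestrated capillaries, had the largest unadjusted p of the role group (0.434), at -0.30 ± 0.37. It ranged from 496 to 922 normalized counts in the mutants and from 397 to 1402 in the WT mice.

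Clec14a ran the other way. It encodes a C-type lectin of endothelial cells, and it had 1240, 347 and 1103 in female mutants and 2642 and 1303 in labelled male mutants, against 576, 498 and 197 in female WT mice and 336 and 833 in male WT mice. Of the mutants, 4 were above every WT mouse, and female mutant 2 lay within the WT range. Female mutant 1, lowest for most members, was at 215% of the median of the other 9 libraries. The log2 difference was 1.34 ± 0.47 (SE, limma adjusted p = 0.7104), and 1.197 ± 0.50 without female mutant 1. Mmrn2, a matrix glycoprotein that binds the CLEC14A and CD93 proteins, stood at -1.45 ± 0.79. It had 30, 591 and 311 in female mutants and 306 and 895 in labelled male mutants, against 1231, 630 and 1037 in female WT mice and 511 and 576 in male WT mice. The other 6 genes of the role group had log2 differences between -1.54 and -0.998. Myct1, a membrane protein of endothelial cells, was at the low end, with 13 to 480 normalized counts in the mutants and 192 to 504 in the WT mice. Ptprb, a phosphatase that acts on VE-cadherin and the TIE2 receptor, was at the other, with 31 to 644 in the mutants and 177 to 801 in the WT mice. Between them lay the adhesion molecules Esam and Icam2, the sialomucin Podxl and Robo4, a roundabout receptor of endothelium, and in all 6 the groups overlapped.

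**Figure D1:**
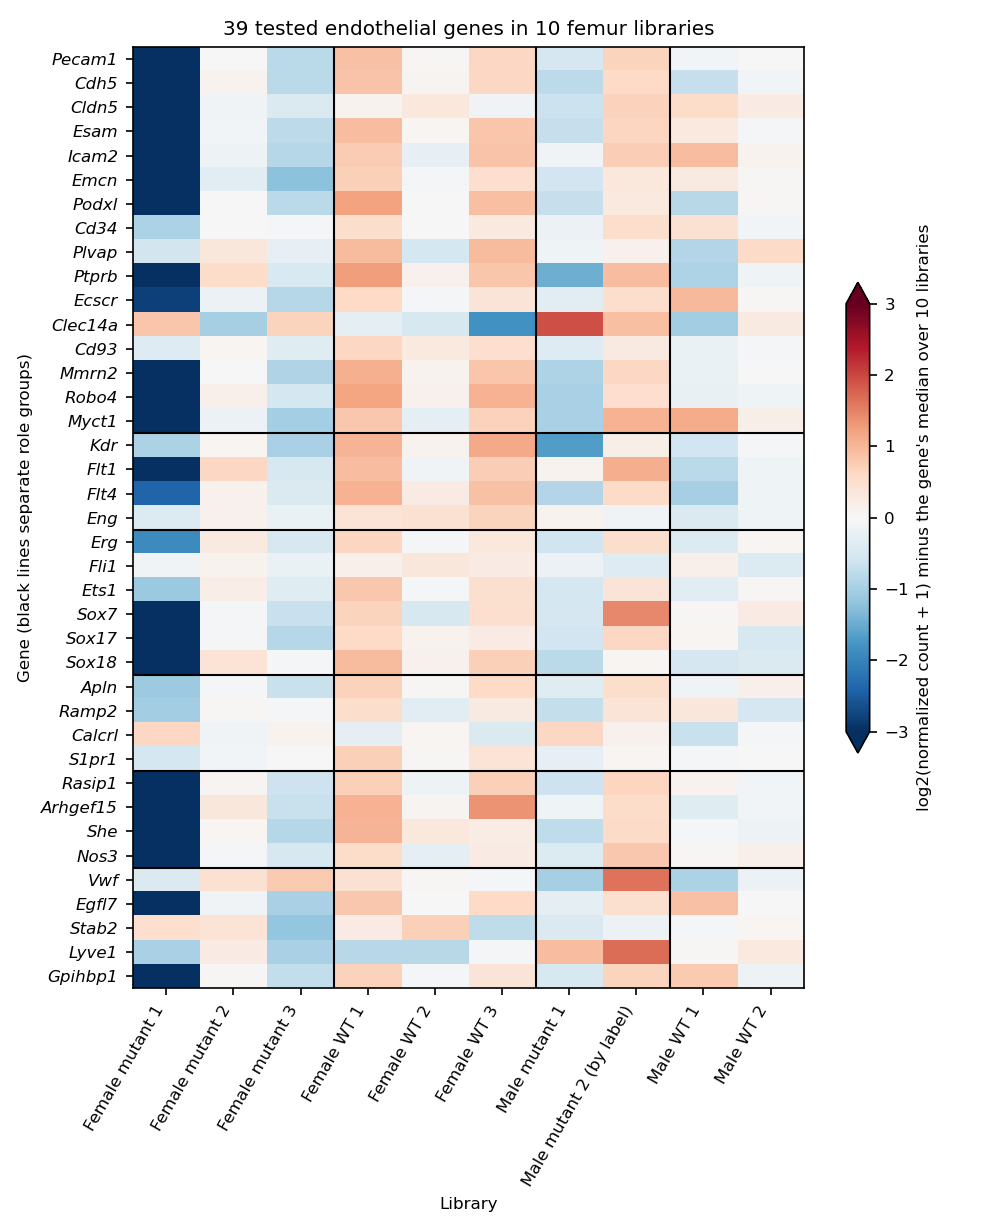
Values of the 39 tested endothelial genes in the 10 libraries, as log2(normalized count + 1) minus the gene's median over the libraries, with colours limited to 3 in either direction and role groups separated by lines. Female mutant 1 is the darkest blue column, and Clec14a and Calcrl stand out in it against their neighbours.

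Of the receptors for VEGF and TGF-beta, Kdr had the smallest p. Kdr encodes the main signalling VEGF receptor. Its promoter window above held neither AGGAAG nor ACAATNG on either strand, and other ETS or SOX letters were not searched. Kdr had 492, 992 and 484 normalized counts in female mutants and 295 and 1075 in labelled male mutants. Female WT mice had 1921, 1011 and 2075, and male WT mice 639 and 903. Every female mutant was below every female WT mouse, while labelled male mutants lay on either side of the male WT mice. The log2 difference was -0.99 ± 0.40 (SE, 95% interval -1.87 to -0.11, limma adjusted p = 0.749). It differed little without female mutant 1, at -0.85 ± 0.42. That library held 49.6% of the median of the others, close to female mutant 3.

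Flt1, a VEGF receptor that also acts as a decoy, had 39, 583 and 272 in female mutants and 408 and 805 in labelled male mutants, against 721, 355 and 636 in female WT mice and 218 and 348 in male WT mice. Both labelled male mutants were above both male WT mice. The difference over all mice was -0.51 ± 0.74 on the log2 scale with female mutant 1 and 0.23 ± 0.41 without it, and -0.090 when the library labelled male mutant 2 was left out as well, so that its sign changed with the libraries used. Flt4, the receptor for VEGF-C, had 83, 489 and 330 in female mutants and 243 and 664 in labelled male mutants, against 921, 532 and 825 in female WT mice and 224 and 407 in male WT mice, at -0.82 ± 0.57 on the log2 scale.

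Eng encodes endoglin, a coreceptor for TGF-beta family ligands. It had 1257, 1813 and 1453 in female mutants and 1794 and 1555 in labelled male mutants, against 2221, 2275 and 2663 in female WT mice and 1237 and 1529 in male WT mice. Among females every mutant was below every WT mouse, and among labelled males both mutants were above both WT mice. The log2 difference was -0.67 ± 0.16 in females and 0.28 ± 0.20 in labelled males. The difference between these, labelled males minus females, was 0.95 ± 0.26 (SE, limma adjusted p = 0.801), and without female mutant 1 it was 0.83 ± 0.25 (limma adjusted p = 0.904). Among the alternatives run, it was past the threshold only when male WT 2 was left out, at 1.11 ± 0.26 (limma adjusted p = 0.0278), and male WT 1 was then the sole male WT library. That fit called 2674 of the 14362 genes, so the call is not particular to Eng.

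The 6 transcription factors all had estimates below 0, with a median log2 difference of -0.67, and of -0.21 without female mutant 1. Fli1, an ETS factor shared with blood cells, had the smallest p of the 6, at -0.25 ± 0.12 (SE, limma adjusted p = 0.791). It had 645, 757 and 612 in female mutants and 618 and 530 in labelled male mutants, against 777, 878 and 827 in female WT mice and 776 and 527 in male WT mice. Male WT 2 was the lowest of all 10 libraries, and the other 4 WT mice were above every mutant. Erg, an ETS factor that drives junction genes in endothelium, had 124, 569 and 335 in female mutants and 307 and 672 in labelled male mutants, against 738, 448 and 583 in female WT mice and 350 and 490 in male WT mice. Its difference was -0.55 ± 0.42 with female mutant 1 and -0.16 ± 0.29 without it, on the log2 scale.

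Sox17, which is needed for arterial identity, had 17, 172 and 99 in female mutants and 121 and 278 in labelled male mutants, against 271, 192 and 213 in female WT mice and 188 and 129 in male WT mice. The female groups did not overlap, and the male groups did. Sox7, its relative, was measured at 36, 319 and 206 in female mutants and 231 and 900 in labelled male mutants, against 519, 236 and 467 in female WT mice and 339 and 391 in male WT mice, and had the largest p of the role group (0.257). The third factor of this SOX subfamily, Sox18, had 33 to 579 in the mutants and 307 to 852 in the WT mice. Ets1 had 768 to 2174 in the mutants and 1306 to 2914 in the WT mice.

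Of the peptide and lipid signalling genes, the pair that forms the adrenomedullin receptor had estimates of opposite sign. Calcrl, the receptor protein itself, had 802, 486 and 563 in female mutants and 802 and 568 in labelled male mutants, against 434, 541 and 384 in female WT mice and 328 and 502 in male WT mice. Every mutant except female mutant 2 was above every WT mouse. The log2 difference was 0.55 ± 0.19 (SE, limma adjusted p = 0.7104) with female mutant 1 and 0.45 ± 0.20 without it. Ramp2, its partner protein, had 143, 303 and 286 in female mutants and 180 and 386 in labelled male mutants, against 428, 237 and 353 in female WT mice and 371 and 206 in male WT mice, at -0.33 ± 0.31 on the log2 scale. The difference between these 2 genes was not tested.

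Apln had 2895, 5972 and 3847 in female mutants and 4793 and 8861 in labelled male mutants, against 9886, 6318 and 9309 in female WT mice and 5611 and 6859 in male WT mice. Its log2 difference was -0.60 ± 0.29 (limma adjusted p = 0.789). Aplnr, the receptor for this abundant ligand, was at 0 to 4 normalized counts in the mutants and 0 to 11 in the WT mice, at or near the detection floor, and no fold is given. S1pr1, a receptor for sphingosine 1-phosphate that steadies vessels, had 1983, 2702 and 2868 in female mutants and 2401 and 2947 in labelled male mutants, against 4678, 2899 and 3797 in female WT mice and 2785 and 2827 in male WT mice. The female groups did not overlap, although female mutant 3 and female WT 2 were close. Its log2 difference was -0.38 ± 0.17 (SE, limma adjusted p = 0.786).

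The intracellular regulators were the role group in which female mutant 1 was lowest throughout, for 4 of 4 genes. She, an SH2-domain adaptor, had 8, 216 and 114 in female mutants and 121 and 310 in labelled male mutants, against 421, 259 and 241 in female WT mice and 197 and 187 in male WT mice. Female mutant 1 held 3.70% of the median of the other 9 libraries, the lowest share of any member. Nos3, the endothelial nitric oxide synthase, had 34, 460 and 339 in female mutants and 355 and 828 in labelled male mutants, against 688, 392 and 557 in female WT mice and 483 and 524 in male WT mice. Rasip1, required for vessel lumens to form, had 39 to 907 in the mutants and 518 to 948 in the WT mice. Arhgef15 had 14 to 180 in the mutants and 95 to 311 in the WT mice. Their log2 differences lay between -1.37 (She) and -0.91 (Nos3), and between -0.49 and -0.18 without female mutant 1.

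Among secreted and scavenging proteins, Egfl7, a matrix protein made by endothelial cells, had 97, 895 and 497 in female mutants and 803 and 1346 in labelled male mutants, against 1698, 963 and 1478 in female WT mice and 1794 and 975 in male WT mice. All mutants but the library labelled male mutant 2 were below every WT mouse. The log2 difference was -1.30 ± 0.58 (SE, limma adjusted p = 0.786), and -0.71 ± 0.30 without female mutant 1. Gpihbp1, which anchors lipoprotein lipase to the capillary wall, had 34, 664 and 390 in female mutants and 462 and 1028 in labelled male mutants, against 1038, 630 and 844 in female WT mice and 1108 and 578 in male WT mice. Its groups overlapped in both sexes by label, at -1.27 ± 0.75 on the log2 scale. Vwf, the clotting factor that megakaryocytes make as well, had 587, 1083 and 1378 in female mutants and 397 and 2463 in labelled male mutants, against 1084, 818 and 772 in female WT mice and 413 and 707 in male WT mice. Its estimate of 0.42 ± 0.46 on the log2 scale turned to -0.055 ± 0.28 without the library labelled male mutant 2. Lyve1, a hyaluronan receptor of lymphatic and sinusoidal endothelium, had 9, 22 and 9 in female mutants and 36 and 61 in labelled male mutants, against 10, 10 and 18 in female WT mice and 19 and 23 in male WT mice. The library labelled male mutant 2 was the highest for both Vwf and Lyve1.

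**Figure D2:**
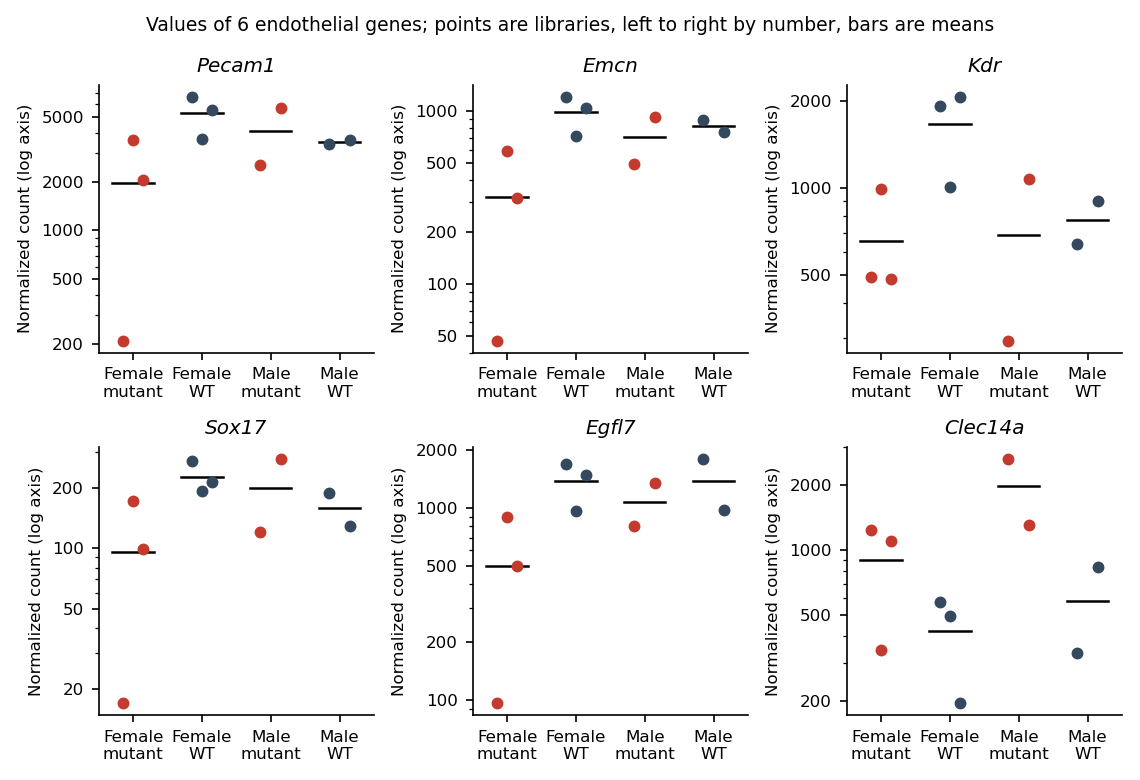
Normalized counts, on log axes, of 6 endothelial genes in every library, with bars for group means and male mutant 2 placed by its label. Female mutant 1 is the lowest point for Pecam1, Emcn, Sox17 and Egfl7, with 210, 47, 17 and 97 normalized counts, but not for Kdr or Clec14a.

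Over all 10 libraries, limma called 0 of the 39 tested members at an adjusted p under 0.05 for genotype, as it called 0% of all 14362 genes. At an unadjusted p under 0.05, 5 members were lower in mutants (Emcn, Ecscr, Kdr, S1pr1 and Egfl7), or 12.8%, against 2.62% of all genes, and 2 were higher (Clec14a and Calcrl), against 3.69%. Estimates lay below 0 for 35 of 39 members (89.7%), against 51.8% of all genes, and the members' median log2 difference was -0.94, against -0.0088 for all genes. For 0 members was every mutant below every WT mouse, which held for 0.334% of all genes. These genes share their cells of origin and their libraries, so the count of estimates below 0 is not a count of independent observations.

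Without female mutant 1, the library that was set aside for its low vessel signal, 0 members and 0% of all genes were called. At an unadjusted p under 0.05, 3 members were lower (Emcn, Ecscr and Egfl7), against 2.83% of all genes, and 2 were higher (Clec14a and Calcrl), against 3.45%. Estimates lay below 0 for 34 of 39 members, against 51.2% of all genes, with a median log2 difference of -0.31. Again 0 members had every mutant below every WT mouse (0.717% of all genes). Female mutant 1 was chosen by its values of these same genes. For genes low in it, leaving it out raises the mutants' mean and narrows their spread. The shares of all genes are thus no fair background in the fits without it, and their counts are a description. The sums over all 40 genes were 20393, 50423 and 35871 normalized counts in female mutants and 37947 and 68914 in labelled male mutants, against 81099, 51931 and 71946 in female WT mice and 45269 and 48709 in male WT mice. These sums were 0.0783% to 0.313% of the counts outside Rn45s.

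**Figure D3:**
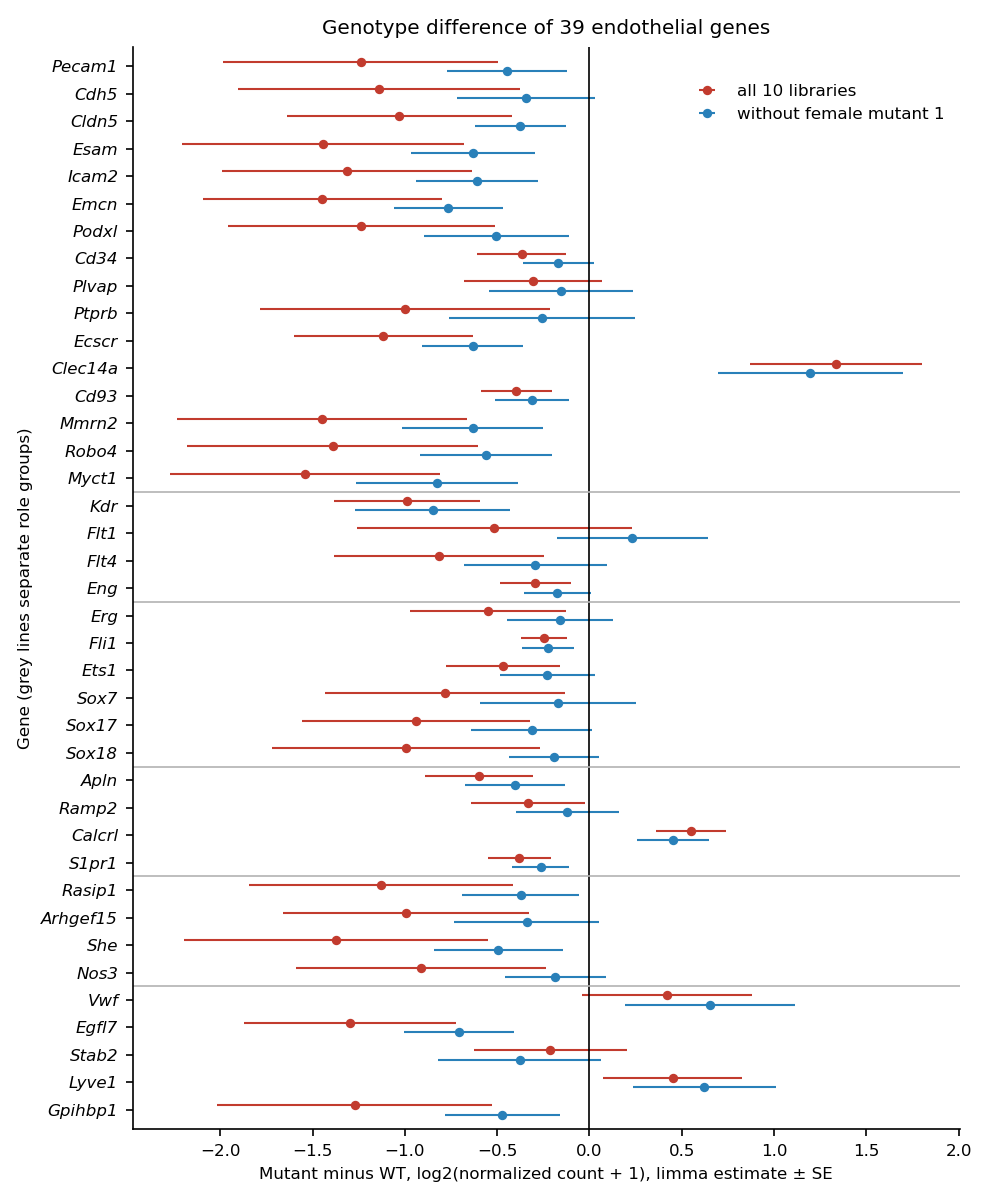
Genotype differences of the 39 tested genes, mutant minus WT on the log2(normalized count + 1) scale, as limma estimates with SE bars, for all 10 libraries and without female mutant 1. Most estimates lie closer to 0 without that library, with a median of -0.31 in place of -0.94, and those of Clec14a, Calcrl, Vwf and Lyve1 lie above 0 in both.

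The library labelled male mutant 2 was at the other end. It was the highest of the 10 for 8 of 39 members, against 6.79% of all genes, and female WT 1 was the highest for 17, against 11.3%. With the library labelled male mutant 2 left out, 15 members were lower at an unadjusted p under 0.05, against 2.94% of all genes. Every mutant was then below every WT mouse for 5 members, Cldn5, Esam, Emcn, Ecscr and Egfl7, against 0.808% of all genes. With female mutant 1 left out as well, 20 members were lower at an unadjusted p under 0.05, against 2.62% of all genes, and the same rule of no overlap held for 5 members, against 1.32%. In both fits limma called 0 members at an adjusted p under 0.05 and 0% of all genes, with member medians of -1.30 and -0.61 on the log2 scale. By the sum over these genes, the libraries left out were the highest and the lowest mutant. Leaving out the highest lowers the mutants' mean, and leaving out both narrows their spread. The shares of all genes are thus no fair background here, and these counts are a description and no separate evidence.

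Within labelled females, which are also 1 set of library names, the median log2 difference was -1.59, and -0.68 without female mutant 1. Limma called 0 members, and 2 of all genes (0.0139%). At an unadjusted p under 0.05, 20 members were lower, against 2.4% of all genes, and 35 had an estimate below 0, against 50.4%. Every female mutant was below every female WT mouse for 16 members, against 7.16% of all genes. These were Pecam1, Cldn5, Esam, Emcn, Ecscr, Cd93, Mmrn2, Kdr, Flt4, Eng, Fli1, Sox17, Apln, S1pr1, She and Egfl7. The library labelled male mutant 2, without the male level of Ddx3y, is not among these females. It was below every female WT mouse for Cd93, Eng and Fli1 only. For the others listed it was above the lowest female WT mouse, as for Pecam1 (5703 against 3670) and Emcn (929 against 720). The lack of overlap thus depends on the label of that library.

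Leaving out a mutant library cannot remove a gene from the count of members without overlap. Without female mutant 1 it was again 16 members, against 12.4% of all genes. Limma called 0 members and 0% of all genes among the remaining females, and 7 members were lower at an unadjusted p under 0.05 (Esam, Emcn, Podxl, Cd93, Eng, Apln and Egfl7), against 1.36% of all genes. Estimates lay below 0 for 35 members, against 51.2%. Emcn, for example, was at -1.17 ± 0.37 on the log2 scale (SE, 95% interval -2.01 to -0.33). These counts and this interval rest on the choice of the library left out, and are no separate evidence. Between the remaining female mutants, mutant 3 was below mutant 2 for 35 of 39 members, against 49.2% of all genes, so these too differed from each other across the group of genes.

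Within labelled males, the median log2 difference was 0.071. Limma called 0 members and 0% of all genes. At an unadjusted p under 0.05, 0 members were lower, against 3.89% of all genes, and 2 were higher (Clec14a and Calcrl), against 4.42%. Estimates lay below 0 for 16 members, against 50% of all genes. Both labelled male mutants were below both male WT mice for 1 member, Stab2 near the floor, against 13.7% of all genes. They were above both for 5, Clec14a, Flt1, Eng, Calcrl and Lyve1, against 13.1%.

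The male mutant libraries were unlike each other. The library labelled male mutant 2 was above male mutant 1 for 35 of 39 members, against 46.8% of all genes. Male mutant 1 was below, and the library labelled male mutant 2 above, both male WT mice for 23 members, against 5.48% of all genes. Of the male WT mice, male WT 1 stood apart over all tested genes, as the lowest of the 10 libraries for 29.3% of them and the highest for 31.8%, and among the members it was lowest for 3 and highest for 5. Without the library labelled male mutant 2, the male median was -0.43 on the log2 scale, and without male mutant 1 it was 0.53.

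The difference between the sexes by label, males minus females, had a median of 1.58 on the log2 scale over the members, and of 0.75 without female mutant 1. Limma called 0 members and 0% of all genes in both fits. With all libraries, 2 members (Cd93 and Eng) were higher at an unadjusted p under 0.05, against 2.45% of all genes, and 1 had an estimate below 0, against 50.6%. Without female mutant 1, 1 member (Eng) was higher, against 1.49% of all genes, and 0 had an estimate below 0, against 49.7%. With the library labelled male mutant 2 left out too, the median was 0.23.

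Female mutant 1 had been singled out for its low values of these genes, so its shares are a description. It was the lowest of the 10 libraries for 29 of 39 members, against 9.09% of all genes, and held 10% or less of the median of the other 9 for 19 members, against 0.843% of all genes. The median share over the members was 10.6%, and over all tested genes 100%. Its depth was ordinary, with 30.0 M estimated reads outside Rn45s. The 19 genes at 3.70% to 9.95% were Pecam1, Cdh5, Cldn5, Esam, Icam2, Emcn, Podxl, Ptprb, Mmrn2, Robo4, Myct1, Flt1, Sox17, Sox18, Rasip1, She, Nos3, Egfl7 and Gpihbp1. In the other 9 libraries the highest value of such a gene was 2.44 to 6.57 times its lowest.

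A middle range of 10.6% to 25.3% held Ecscr, Flt4, Erg, Sox7 and Arhgef15. Higher shares, 44.9% to 85.2%, were found for 12 genes, Cd34, Plvap, Cd93, Kdr, Eng, Fli1, Ets1, Apln, Ramp2, S1pr1, Vwf and Lyve1. The remaining 3, Clec14a, Calcrl and Stab2, stood at 150% to 215%. The members thus spread over a wide range of shares in the same library, with no gene between 25.3% and 44.9%.

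Genes of the vessel wall outside the member list were low in the same library. Its median share was 15.7% over 15 other endothelial genes, of which it was lowest for 12, and 30.4% over 12 arterial and Notch genes, of which it was lowest for 9. Tie1, an endothelial receptor kinase, had 97, 1599 and 915 normalized counts in female mutants and 755 and 2399 in labelled male mutants, against 2221, 1652 and 1847 in female WT mice and 1298 and 1411 in male WT mice. Markers of mural cells, the pericytes and smooth muscle cells around vessels, were at a median of 10.7% and lowest in female mutant 1 for 8 of 10 genes. Rgs5, a pericyte gene, had 33, 591 and 579 in female mutants and 286 and 1545 in labelled male mutants, against 2332, 1042 and 1358 in female WT mice and 584 and 1007 in male WT mice.

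Lists of other cell types were mostly nearer to the other libraries. In female mutant 1, leukocyte markers were at a median of 123% and macrophage markers at 122% of the other 9 libraries, and it was lowest for 0 of 8 and 0 of 9 of them. Megakaryocyte markers were at 97.2%, marrow stroma at 95.1%, cartilage at 70.3%, osteoblast at 67.7%, osteocyte at 64.8% and skeletal muscle markers at 57.5%. Some single genes of these lists were low in it too. Of the cartilage markers it was lowest for 3 of 8, the collagen genes Col10a1 at 10.3%, Col2a1 at 17.4% and Col9a1 at 36.2%, and Acan was at 28.9%. Adipoq, a fat cell gene in the marrow stroma list, was at 12.7%. The part of any of these in the result was not tested.

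**Figure D4:**
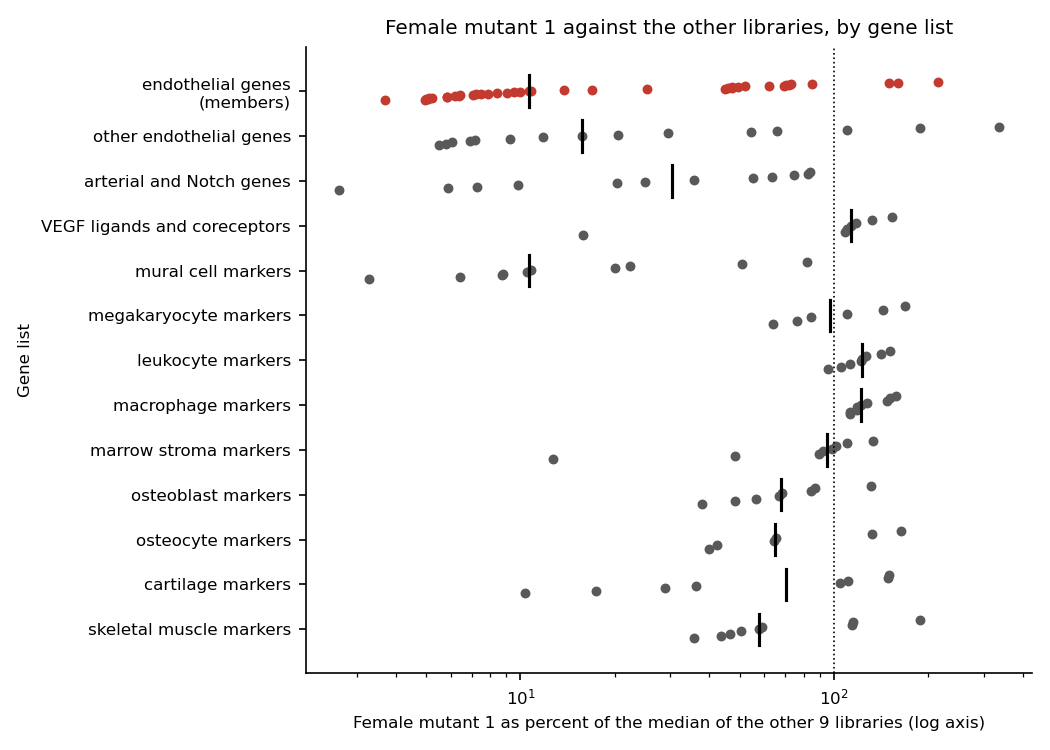
Each tested gene of the endothelial list and of other cell type lists in female mutant 1, as a percentage of its median in the other 9 libraries (log axis), with a black bar at the median of each list and a dotted line at 100%. Endothelial and mural genes have medians of 10.6% and 10.7%, against 123% for leukocyte and 122% for macrophage markers.

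The ligands that act on these receptors were read in the same fit. Of 7 VEGF ligands and coreceptors, limma called 0 for genotype, 6 had estimates above 0, and the median log2 difference was 0.21. Vegfa, the main ligand of Kdr, had 12585, 8744 and 8770 normalized counts in female mutants and 8191 and 7104 in labelled male mutants, against 7330, 7975 and 9348 in female WT mice and 4193 and 9579 in male WT mice. Female mutant 1, low for vessel genes, was the highest of the 10 for Vegfa. Pgf, a ligand of Flt1, was the exception, with 281, 1495 and 963 in female mutants and 1430 and 2581 in labelled male mutants, against 3163, 1777 and 3011 in female WT mice and 2334 and 1553 in male WT mice. Its log2 difference was -1.07 ± 0.50 (SE, limma adjusted p = 0.786).

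In the other lists of vessel genes limma called 0 genes for genotype as well. Estimates lay below 0 for 13 of 15 other endothelial genes, with a median log2 difference of -0.71 (-0.36 without female mutant 1), for 11 of 12 arterial and Notch genes, at -0.47 (-0.12), and for 8 of 10 mural markers, at -0.95 (-0.26 without it). Sele, the endothelial selectin of activated vessels, was an exception, with 32, 17 and 31 in female mutants and 45 and 30 in labelled male mutants, against 5, 6 and 4 in female WT mice and 1 and 62 in male WT mice. Its log2 difference was 2.00 ± 0.77 (SE, limma adjusted p = 0.739), with 4 of the 5 WT libraries close to the floor and male WT 2 the highest of all 10. Median differences were -0.22 for leukocyte and -0.29 for macrophage markers, 1.94 for osteocyte and 1.16 for skeletal muscle markers, each with 0 genes called, and their part in the values of the vessel genes was not tested.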

How the data were processed

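Femur RNA of 10 mice was isolated with TRIzol and sequenced after ribosomal RNA depletion, per the labels' protocols. STAR 2.5.2b and DESeq2 1.14.1 are named with mm10 in the submitters' processing notes, and other settings were not given in the sources used here. In the deposited table each gene has one score per library: a count scaled by the authors with DESeq2, per the file headers, and rounded, as its values are whole. Because of that rounding, whole reads could not be recovered, and no count test was run. What 1 read is worth was estimated from gaps in the whole numbers below 150. All 10 columns matched a sample title, and 0 columns lacked a sample. No 2 replicates were copies: at most 1.12% of tested genes had equal values.

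Sample titles gave the groups, the sex and the replicate numbers. Values were taken as log2(normalized count + 1), on which changes of low genes are understated, where at least 5 libraries reached 10 normalized counts. They were tested with limma 3.58.1 (R 4.3.3), using a mean-variance trend, robust moderation, labelled sex as covariate and p-values adjusted by Benjamini-Hochberg over all 14362 genes. A call is an adjusted p under 0.05. Effects within and between the sexes came from 4 group means over all libraries. Tables were handled in Python 3.11.15 with pandas 2.3.3 and numpy 2.4.6.

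The members, the 16 other lists (178 of 179 entries matched) and the choice of female mutant 1 as the library to leave out were made with earlier results of these data known. Members named value by value were those a role needs and those with the smallest and largest p in each of 6 role groups; other members were added as examples. Of each other list, up to 3 genes with the smallest p were eligible. The lymphatic markers, Tie1, Vegfa, Gpr182, Adipoq, the cartilage genes and the sums of blood cell lists were chosen after their values were seen. Alternatives were pseudocounts of 0.5 and 5, other filters, quantile and total-count scaling, array weights, no sex covariate, a replicate block, single-sex fits and leaving out libraries; leaving out female mutant 1 together with the library labelled male mutant 2 was added after seeing the data. Intervals and floors cover counting error only where they rest on reads.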

Additional observations from a re-analysis of the deposited data

Results flagged for a closer look

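For each of the 40 genes, the 5 mutant and the 5 WT libraries were searched on the log2(normalized count + 1) scale for a library far from the others, by Dixon's ratio with a critical value of 0.71. Of these 80 sets of libraries, 6 held such a library, where chance picks about 1 in 20 sets that are independent, which genes of the same libraries are not. In 5 of the 6 it was female mutant 1 among the mutants. That library was singled out for its low signal over these same genes, so these 5 restate that choice and are no separate evidence. It had 64 normalized counts of Podxl, a sialomucin of the vessel surface, 39 of Rasip1, which is needed for vessel lumens, 8 of She, an adaptor protein, 34 of Nos3, the endothelial nitric oxide synthase, and 34 of Gpihbp1, the capillary anchor of lipoprotein lipase. The other was male WT 2 among the WT mice, with 527 normalized counts of Fli1, an ETS factor.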

How the results depend on the processing

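Of 856 values of single endothelial genes for genotype in all mice, recomputed under 22 alternatives, 852 kept their direction and their side of the threshold, and 4 changed sign. With 1 library left out, Flt1 ranged from -0.91 (without the library labelled male mutant 2) to 0.23 (without female mutant 1), Stab2 from -0.44 (without female WT 3) to 0.076 (without female mutant 3), and Vwf from -0.055 (without the library labelled male mutant 2) to 0.75 (without male mutant 1). Vwf was at -0.23 when the library labelled male mutant 2 was dropped with female WT 3 and male WT 1. The members' median for genotype in all mice ranged from -1.30 to -0.31 on the log2 scale over the fits that left out 1 library, was -0.86 with rescaled totals and -0.60 with array weights, and 0 endothelial genes were called under any alternative. Array weights called 11 of all genes in place of 0. In labelled females the count over all genes, 2, became 1 with a pseudocount of 5, a mean of 50 or more or quantile normalization, 7 with array weights, and 0 with the replicate block, with females alone, without female WT 3 and male WT 1, also when the library labelled male mutant 2 was dropped with these, and without female mutant 1 and that library. It was 0 to 1 over the fits that left out 1 library, where the female median was -2.15 to -0.68, and the median was -0.68 without female mutant 1 and the library labelled male mutant 2. In labelled males 0 to 4363 genes were called with 1 library left out, the most without male WT 2, where the lone male WT 1 was assumed to vary like the other groups. For the difference between the sexes these fits called 0 to 2674 of all genes and 0 to 1 endothelial genes (Eng, without male WT 2), with a median of 0.75 to 2.33, and of 0.23 without female mutant 1 and the library labelled male mutant 2. The cause of these moves was not tested. In females, replicate numbers were not found to pair mutants with WT mice. Same-numbered libraries had correlations of their deviations of -0.32, -0.29 and 0.001, and female mutant 1 correlated best with female WT 2 (0.31). With 2 libraries per male group, deviations mirror each other, so both male pairs have the same value, 0.22, by construction. They cannot decide on pairing. With the replicate number as a block, the members' median stayed at -0.94 and 0 endothelial genes were called. Estimated reads of 12.9 M in female WT 3 give it the highest floor, 6.58 normalized counts for 3 reads, which limits Stab2, Lyve1 and Aplnr. With 5 libraries per genotype that differed by this much, limma called 0 endothelial genes. At an unadjusted p under 0.05, 5 were lower in mutants, against 2.62% of all genes, and 2 were higher, against 3.69%.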
